A study of Mus musculus with 105 samples.

Results

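The comparison described here asked which messenger RNAs (mRNAs) stayed more abundant when protein synthesis was blocked in T cells given an inhibitor of transcription. It took in 6 libraries, 2 of the 35 groups of 3 libraries that make up the series, chosen by their labels alone: 3 libraries of activated cells given DRB and cycloheximide for 1 h, and 3 of activated cells given DRB alone for 1 h. All 6 came from primary CD4+ T cells of C57BL/6J female mice aged 6 weeks, taken from spleen and lymph nodes by negative selection and activated on magnetic beads that bear CD3 and CD28 antibodies. DRB was used at 65 µM and cycloheximide at 100 µg/ml. Each group has replicates 2, 3 and 4, which the labels call biological replicates without naming the mice. Unless stated otherwise, p-values of genes rest on the spread between libraries within groups, estimated over all 35 groups of the series. Activated cells in other states stand beside the results: DRB at 0 h, DRB with or without cycloheximide at 3 h, triptolide (25 µM) at 0 h and with or without cycloheximide at 1 h, DRB with harringtonine (2 µg/ml) at 1 h, and cells given cycloheximide alone or nothing at 1 h.

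DRB inhibits CDK9, the kinase of P-TEFb that releases paused RNA polymerase II into elongation, and triptolide acts earlier, on the XPB subunit of the initiation factor TFIIH. Once either is present, the level of a mature mRNA mostly follows its decay. Cycloheximide freezes elongating ribosomes on the mRNA, whereas harringtonine stops ribosomes just after initiation and lets the others run off. The breakdown of many mRNAs, among them targets of nonsense-mediated decay (NMD), tubulin and histone mRNAs and mRNAs with AU-rich elements, is known to be linked to their translation.

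The 6 libraries held 1349308 to 3268971 reads counted in exons of genes, and 79.5 to 94.3% of the reads were in no gene count, mostly because they aligned at several places (64.6 to 86.9% of reads). Summed markers of CD4 T cells lay between 3503 and 4363 CPM (exon counts scaled to a common library size) under DRB and between 3370 and 3842 CPM with cycloheximide. Cd4 itself lay between 248 and 379 CPM, Cd8a at 0 to 2.09 CPM. B cell markers, led by the immunoglobulin light chain Igkc, summed to 64.0 to 282 CPM under DRB and 44.9 to 179.9 CPM with cycloheximide. None of the 9 marker lists had a member that passed the test, but most lists had few members tested. The test covered 10 CD4 T cell, 1 CD8 T cell and 4 B cell markers, and 1 or 2 in each other list. Ncr1, Klra8, Siglech, Ly6g, Ppbp and Pdpn were at 0 in all 6 libraries.

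RNA from the spike-in mixture of the External RNA Controls Consortium (ERCC) gives a measure of mRNA amount that does not depend on the library total. Exon counts per ERCC count were 13.5, 14.2 and 14.7 under DRB at 1 h in replicates 2, 3 and 4, and 25.7, 17.2 and 19.9 with cycloheximide. Every library with cycloheximide was above every library without it. The means were 14.2 ± 0.60 and 20.9 ± 4.34 (SD, n = 3 each), a log2 difference of 0.54, or 146% of the DRB level. An exact two-sided permutation test of the 3 libraries against 3 gave p = 0.1, the smallest value it can give, and the difference lay between 0.27 and 0.92 in the 3 replicate pairs. Replicate 2 with cycloheximide was the highest of the 6, and without that replicate number the difference was 0.35. At 0 h the ratios were 19.5, 20.2 and 20.4, so the DRB libraries at 1 h stood at 70.7% of 0 h and the libraries with cycloheximide overlapped the 0 h values. Introns did not follow: intron counts per ERCC count were 10.8, 6.98 and 7.70 under DRB and 14.2, 6.67 and 5.90 with cycloheximide, a log2 difference of -0.02 (exact permutation p = 1).

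**Figure D1:**
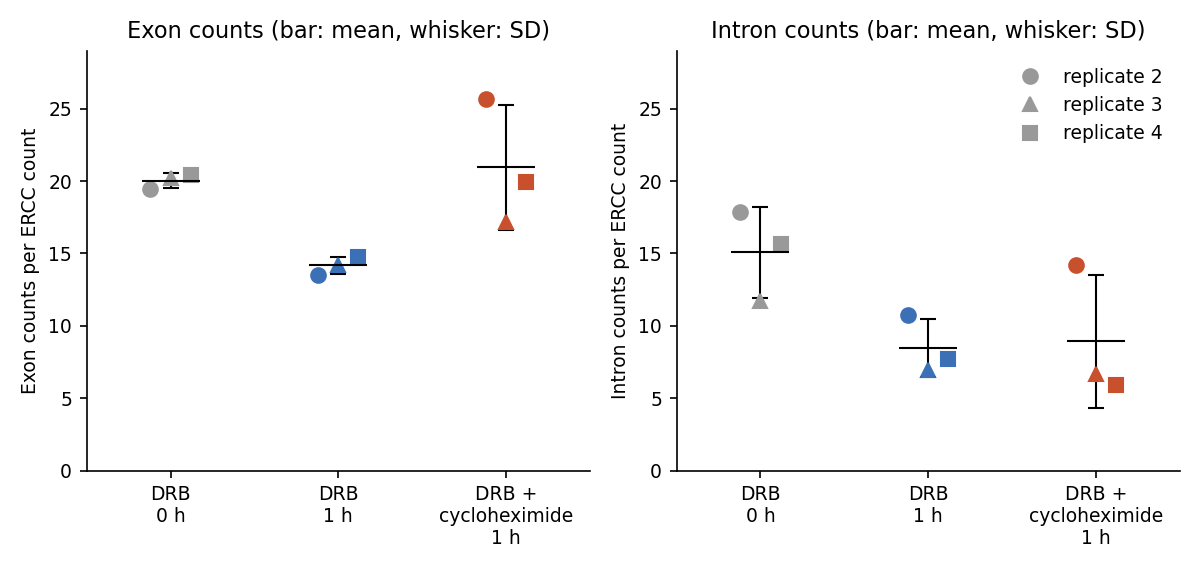
Exon counts (left) and intron counts (right) per ERCC spike-in count in activated cells at 0 h of DRB, 1 h of DRB, and 1 h of DRB with cycloheximide. Points are libraries, bars means and whiskers SD; the exon ratios with cycloheximide, 17.2 to 25.7, all lie above the 13.5 to 14.7 of DRB alone, while the intron ratios overlap.

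Gene by gene, 558 of 10741 genes tested rose with cycloheximide and 138 fell (5.2% and 1.28%; edgeR quasi-likelihood test on counts scaled by the trimmed mean of M-values, TMM, Benjamini-Hochberg adjusted p under 0.05). The genes that rose had a median log2 change of 1.02, and 291 of them changed at least 2-fold. In 510 of the 558 every library with cycloheximide was above every library without it; over all genes tested the groups did not overlap in either direction for 18.9%. The falls were smaller, with a median of -0.70 and 20 genes at 2-fold or more. TMM sets the middle of all genes to no change. Scaled on ERCC counts the median of all genes moved to 0.71, 3590 genes rose (33.4%) and 3 fell (0.0279%). All 558 genes that rose also rose on that scale, with a median of 1.72, whereas the 138 that fell divided into 69 above and 69 below 0, and 3 of them still fell. Library size alone gave 1022 rises and 56 falls, relative log expression (RLE) size factors 757 and 81, and scaling on mitochondrially encoded mRNAs 5609 and 3. The falls below are therefore falls relative to the other mRNAs of the same library.

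The number of calls moved with the model. With the 6 libraries fitted alone, without their replicate numbers, edgeR called 0 genes, against 1344 at an unadjusted p under 0.05 and 138 called by DESeq2 on the same 6. With the replicate number as a block the same 6 libraries gave 1132 rises and 893 falls, among them 537 of the 540 rises and all 131 falls that could be tested there. The labels do not state a pairing, and the numbers were taken to pair the groups because libraries of the same number deviated alike. Over all libraries with the number as a block 1243 genes rose and 885 fell (11.6% and 8.24%), including all 696 (6.48%). Without replicate 2 there were 209 calls, without replicate 3 there were 502 and without replicate 4 there were 131. On the ERCC scale 502 genes were called without replicate 2, 3738 without replicate 3 and 1540 without replicate 4.

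**Figure D2:**
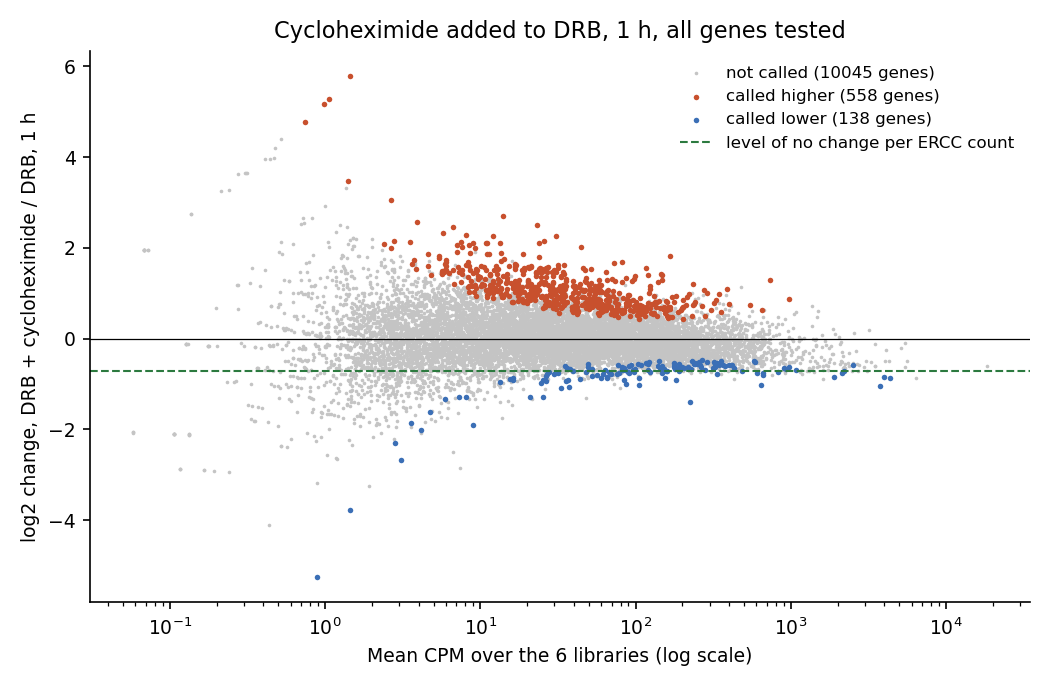
Log2 change with cycloheximide added to DRB at 1 h (y axis) against mean CPM over the 6 libraries (x axis, log scale) for all 10741 genes tested. Colours mark the 558 genes called higher and the 138 called lower; the dashed line, 0.71 below 0, marks the level of no change on the ERCC scale.

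The largest rises were ranked by log2 change among called genes that reach 10 CPM in either group and whose groups do not overlap. Such a ranking favours mRNAs that are scarce under DRB. Hgh1 and Trib3 averaged less than 10 CPM there and passed only through the libraries with cycloheximide. Hgh1 (chr15:76368898-76371437 of mm10, plus strand), which encodes a chaperone partner for elongation factor eEF2, stood at 3.83, 3.20 and 3.85 CPM in DRB replicates 2, 3 and 4 and at 21.4, 27.6 and 24.6 CPM with cycloheximide. Its log2 change was 2.71 ± 0.36 (SE), adjusted p = 8.23e-08. At 0 h it had stood at 17.4, 21.8 and 16.8 CPM, so the libraries with cycloheximide were at or above the 0 h range and the DRB libraries far below it. Trib3, a pseudokinase induced in the integrated stress response, stood at 4.88, 12.8 and 4.49 CPM under DRB, 33.6, 47.3 and 36.1 CPM with cycloheximide and 49.2, 41.3 and 32.5 CPM at 0 h (log2 change 2.5 ± 0.45, adjusted p = 8.90e-05). Itpkc (chr7:27207172-27228661, minus strand), a kinase of the second messenger inositol trisphosphate, stood at 6.97, 16 and 10.3 CPM under DRB, 52.3, 53.3 and 44.7 CPM with cycloheximide and 55.7, 65.5 and 56.2 CPM at 0 h (log2 change 2.26 ± 0.28, adjusted p = 1.63e-08). That the groups with and without cycloheximide do not overlap in these 3 genes was a condition for naming them.

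Rrp8, a nucleolar methyltransferase of ribosomal RNA, had the smallest p of these rises. It stood at 8.71, 12 and 6.42 CPM under DRB and 33.6, 46.7 and 35.2 CPM with cycloheximide (log2 change 2.10 ± 0.25, adjusted p = 8.16e-09), close to the 40.1, 46.8 and 41.7 CPM of 0 h. Cmtr2, the cap methyltransferase that modifies the second transcribed nucleotide, stood at 3.83, 2.40 and 1.28 CPM under DRB and 9.16, 16.2 and 15.6 CPM with cycloheximide (adjusted p = 8.90e-05). It remained below its 0 h values of 19.6, 29.6 and 19.9 CPM. The others were Ctu1 (tRNA thiolation, log2 change 2.45), Sit1 (a transmembrane adaptor that restrains T cell receptor signalling, 2.27), Phf13 (a PHD finger chromatin protein, 2.13), Mcat (mitochondrial fatty acid synthesis, 2.12), Trim32 (a ubiquitin ligase, 2.11), Gtf3c5 (a subunit of the RNA polymerase III factor TFIIIC, 2.10) and Borcs6 (a subunit of a complex that positions lysosomes, 2.10). All 12 were called on the ERCC scale too, but so were all 558 rises, as that scale moves the median of all genes to 0.71. Whichever replicate number was left out, 7 of the 12 (Hgh1, Trib3, Cmtr2, Itpkc, Phf13, Trim32 and Rrp8) were called. Of the rest, Ctu1 reached an adjusted p of 0.0814 without replicate 4, as did Mcat with 0.0816, while without replicate 2 Sit1 reached 0.0692, Gtf3c5 0.0706 and Borcs6 0.0838. Rrp8, Itpkc, Trim32 and Mcat overlap a protein-coding gene on the other strand, and whether counting used strand is not given in the sources used here.

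Gp5 led the falls among genes reaching 10 CPM. Gp5 (chr16:30307685-30310779, minus strand), the platelet glycoprotein V gene, stood at 16.7, 10.4 and 15.4 CPM under DRB and 6.11, 1.2 and 3.69 CPM with cycloheximide (log2 change -1.90 ± 0.53, adjusted p = 0.0163). At 0 h it was at 0.933, 0.780 and 1.15 CPM. The platelet chemokine Ppbp was at 0 in all 6 libraries, and the summed erythroid and platelet markers were at 0.82 to 17.8 CPM over the 6. Cycs, which encodes cytochrome c, stood at 60, 43.2 and 48.1 CPM under DRB, 26.2, 23.4 and 23.8 CPM with cycloheximide and 42.0, 32.0 and 30.2 CPM at 0 h (log2 change -1.06 ± 0.21, adjusted p = 6.37e-04). Rgs1, which quenches signalling by G protein-coupled receptors, stood at 71.5, 24 and 37.9 CPM under DRB, 24, 19.8 and 20.9 CPM with cycloheximide and 16.5, 12.5 and 12.6 CPM at 0 h (log2 change -1.09 ± 0.32, adjusted p = 0.0222). Its DRB replicates spread widely, with replicate 2 highest.

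Rps27l, a variant of a small-subunit ribosomal protein, fell by 1.29 on the log2 scale. Lcmt2, an enzyme of tRNA wybutosine synthesis, fell by 1.29, Ankrd49 by 1.28, the zinc transporter gene Slc30a4 by 1.0 and Txndc12, a thioredoxin-like protein of the endoplasmic reticulum, by 0.97. Sh3bgrl, Uqcrb (a subunit of respiratory complex III), Tma7 and Neto2 had log2 changes of -0.93, -0.93, -0.91 and -0.91. None of the 12 falls was called on the ERCC scale, where Gp5 had a log2 change of -1.15, Cycs of -0.33 and Rgs1 of -0.33. Cycs and Slc30a4 were called whichever replicate number was left out. For the other 10 the largest adjusted p with 1 number left out ran from 0.0798 for Txndc12 to 0.575 for Ankrd49. Gp5 was called with none of the 3 numbers left out, with adjusted p up to 0.17. Lcmt2, Ankrd49, Uqcrb and Tma7 overlap a protein-coding gene on the other strand. On the same strand Txndc12 overlaps Kti12 and Sh3bgrl overlaps Gm6377, both protein-coding.

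**Figure D3:**
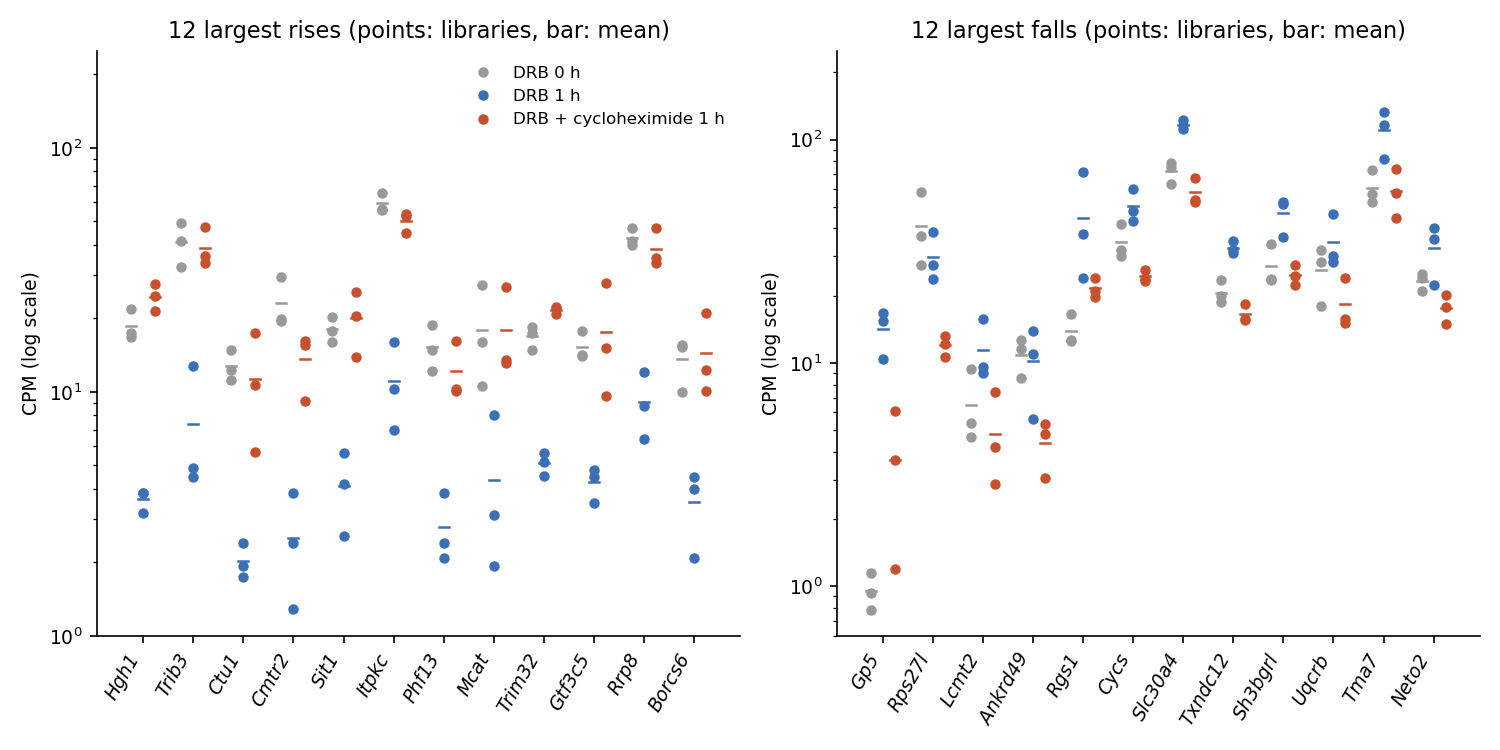
CPM (log scale) of the 12 largest rises (left) and 12 largest falls (right) among genes reaching 10 CPM, in DRB at 0 h, DRB at 1 h and DRB with cycloheximide at 1 h, with points for libraries and bars for means. The genes were chosen among those whose 1 h groups do not overlap; Hgh1 runs from 3.20 to 3.85 CPM under DRB and from 21.4 to 27.6 CPM with cycloheximide.

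An AU-rich 3′ untranslated region (UTR) is the best known destabilising element of T cell mRNAs, and its nonamer TTATTTATT is the strong binding sequence of the decay factor Zfp36. The nonamer was looked for on the sense strand of the annotated 3′ UTRs. The windows below, 10 bases either side, come from 1 mRNA that rose (Cmtr2), 3 that fell (Rgs1, Cycs, Lcmt2) and 2 immediate early mRNAs that did not pass the test (Fos, Zfp36), to show that the same 9 bases, in capitals, are found in all 3 sets.
Fos (chr12:85477103-85477131, plus strand): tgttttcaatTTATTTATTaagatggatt
Zfp36 (chr7:28376951-28376979, minus strand): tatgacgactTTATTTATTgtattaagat
Rgs1 (chr1:144243182-144243210, minus strand): taaatgtttaTTATTTATTacttgaagat
Cmtr2 (chr8:110223741-110223769, plus strand): ttgttagaggTTATTTATTcatgacagga
Cycs (chr6:50565208-50565236, minus strand): ttccactgccTTATTTATTacaaaacaaa
Lcmt2 (chr2:121138246-121138274, minus strand): tgaggacctaTTATTTATTgagtcacaac

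Of the 10546 genes with an annotated coding sequence, 7.47% had a nonamer in the 3′ UTR, against 5.39% of the genes that rose and 10.3% of those that fell. Hgh1, Trib3, Itpkc, Rrp8 and Ier2 have none. Among genes with no nonamer 527 of 9758 rose (5.4%), with 1 nonamer 24 of 621 (3.86%) and with 2 or more 6 of 167 (3.59%). The shorter motif ATTTA, which every nonamer contains, was in 61.4% of 3′ UTRs of genes that rose, 75% of those that fell and 66.3% overall. The median GC content of the 3′ UTR was 47.3% in genes that rose, 37.8% in genes that fell and 44.4% in all, and at the third codon position it was 62.1%, 49.9% and 60%. Median coding length was 1521 bases in genes that rose and 789.5 bases in genes that fell. Ordered by 3′ UTR GC content, the GC-poorest of 3 equal groups of genes had a median log2 change of -0.15 and 3.52% rises, the middle group 0.01 and 5.08%, and the GC-richest 0.17 and 7.42%. Falls went the other way, with 97, 24 and 7 genes. These are descriptions over genes, which are not replicates, and the features vary together.

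Rises with cycloheximide were most frequent among the genes that lost the most RNA under a different transcription inhibitor. The loss was taken as the change after 1 h of triptolide, which shares no library with the comparison. Across 10741 genes Spearman's rho between this change and the cycloheximide change under DRB was -0.57; both are changes relative to the library total, and scarce genes are measured with fewer reads. Genes were then placed in 10 equal groups by their triptolide change. In the group with the largest loss the median log2 change with cycloheximide under DRB was 0.75, and 275 of 1075 genes rose (25.6%). The second group had a median of 0.44 and 169 rises (15.7%), the third 0.27 and 68 (6.33%), and the fourth 0.16 and 31 (2.89%). From the sixth group on the medians were below 0, ending at -0.42 in the last, where no gene rose and 20 fell (1.86%). On the ERCC scale all 10 medians were above 0, running from 1.44 in the first group to 0.29 in the last. Expression differed between the groups: the median CPM under DRB was 8.5 in the first, 59.1 in the eighth and 6.75 in the last.

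**Figure D4:**
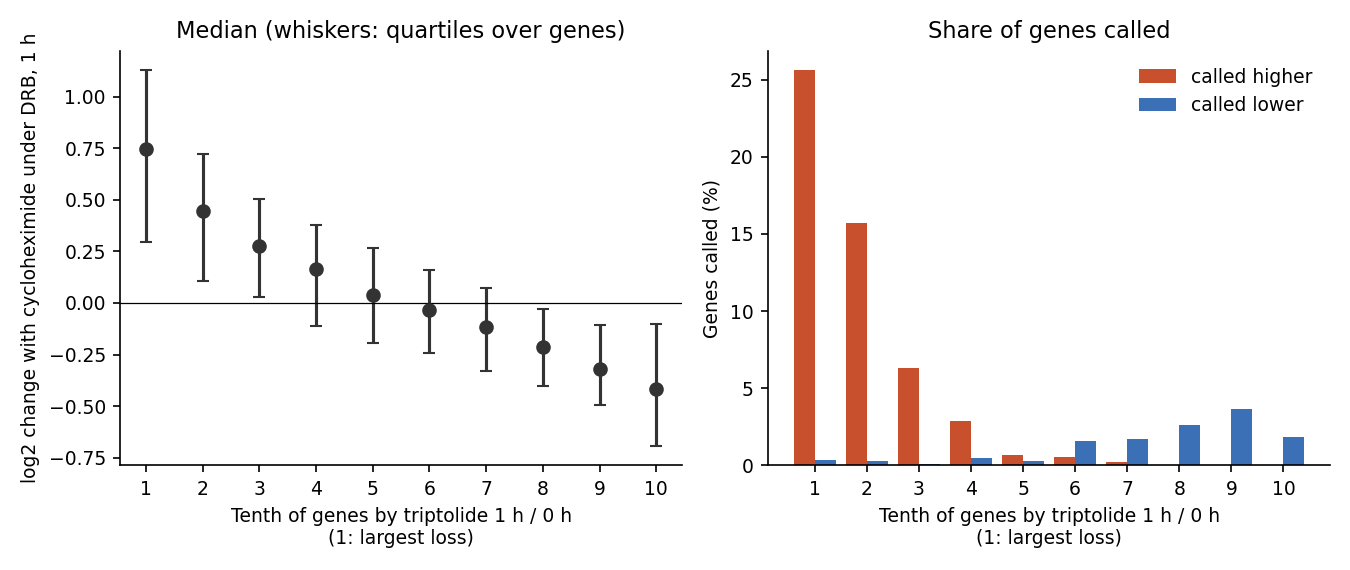
Genes in 10 equal groups by their change after 1 h of triptolide (x axis; 1 is the largest loss). Left, median log2 change with cycloheximide added to DRB at 1 h, with quartiles over genes as whiskers, which runs from 0.75 to -0.42; right, the percentage of genes called higher (25.6% in the first group) and lower.

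Gene groups are read beside the shares over all genes, 5.2% higher and 1.28% lower, or 11.6% and 8.24% with the block. The genes that T cell activation induces come first. Of 38 immediate early genes tested, 5 rose and 0 fell (13.2%; 9 rose with the replicate block), with a median log2 change of 0.30 against 0.00 for all genes, and 0.98 against 0.71 on the ERCC scale. Atf3, a stress-induced transcription factor, stood at 44.6, 33.6 and 37.9 CPM under DRB and 134, 144 and 97.9 CPM with cycloheximide (log2 change 1.68 ± 0.35, adjusted p = 0.00101). The AP-1 subunit gene Fosl1 had 0 counts in the 3 DRB libraries and 19 in the 3 with cycloheximide, at least 5.62-fold higher when 3 counts over the group are taken as the limit. Its call was lost without replicate 2 or 4 (adjusted p up to 0.109), and it overlaps Ccdc85b on the other strand. Nr4a1, an orphan nuclear receptor that marks receptor signalling, stood at 389, 233 and 663 CPM and 1429, 527 and 1184 CPM, overlapping groups with a log2 change of 1.29 ± 0.42 (adjusted p = 0.0482, and 0.47 without replicate 2). The other members called were Dusp5 (1.0), a MAP kinase phosphatase, and Mafk (0.88). Nr4a3, the most abundant member, had a log2 change of -0.17 (adjusted p = 0.904).

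Among 20 feedback genes of NF-kB, 4 rose and 0 fell (20% against 5.2% of all genes; 9 rose with the block; median 0.40, and 1.1 on the ERCC scale). Nfkbie, an inhibitor of NF-kB, stood at 25.8, 29.6 and 33.4 CPM under DRB and 51.9, 67.1 and 66.0 CPM with cycloheximide (adjusted p = 0.00219). Traf1, a signalling adaptor, stood at 226, 196 and 271 CPM and 442, 418 and 515 CPM (adjusted p = 0.00295). In both genes the groups did not overlap; Icam1 (1.24) and Nfkb2 (0.63) were the others. Of 24 cytokine and chemokine mRNAs 1 rose (4.17%, near the share of all genes). It was Il16 (log2 change 1.40 ± 0.29, adjusted p = 7.89e-04; 4 members rose with the block), which went from 61.7, 104.8 and 77.0 CPM to 148, 309 and 182 CPM. Among 20 SOCS, Pim and cytokine feedback genes Bcl6 (1.28), a repressor that guides follicular helper cells, and Pim3 (0.90) rose and Rgs1 fell. The 18 genes of the Regnase-1 and Roquin pathways take in RNA-binding proteins that silence activation mRNAs and, in the same list, their targets. Of the 18 Mafk alone passed the test, and 3 rose and 3 fell with the block. Tfrc, a transferrin receptor mRNA with iron-responsive stem loops, had a log2 change of -0.64 (adjusted p = 0.0731).

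Surface and effector markers of activation gave 3 rises and 1 fall among 28 (8 and 5 with the block; median 0.22). Pdcd1, the inhibitory receptor PD-1, stood at 20.2, 24 and 25.7 CPM under DRB and 59.3, 71.3 and 73.8 CPM with cycloheximide (log2 change 1.56 ± 0.26, adjusted p = 3.15e-05), and was called whichever replicate number was left out. Irf4, a transcription factor of effector T cells, stood at 746, 593 and 741 CPM and 1209, 1327 and 1252 CPM (adjusted p = 0.0182; up to 0.135 with 1 replicate number left out). Batf (0.93), its partner on DNA, rose and Tnfrsf9 (-0.53), the co-stimulatory receptor 4-1BB, fell. Il2ra, Cd69 and Myc, which mark activation, were at 540.0, 262 and 455 CPM, 1034, 459 and 1015 CPM and 98.6, 65.6 and 116 CPM under DRB and had log2 changes of -0.46, -0.33 and 0.39 (adjusted p = 0.532, 0.601 and 0.491). Of 29 genes of the naive and quiescent state 2 rose and 0 fell (7 rose with the block): Ccr7, the receptor that keeps T cells in lymph nodes, from 76.0, 100 and 62.9 CPM to 171, 304 and 160.2 CPM (adjusted p = 5.28e-04), and Id3 (1.54), an inhibitor of E proteins.

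Of 22 p53 genes 3 rose and 0 fell (6 with the block): Sesn2, a sestrin that restrains mTORC1, from 42.5, 69.6 and 37.9 CPM to 120.4, 116 and 135 CPM (log2 change 1.33 ± 0.25, adjusted p = 2.15e-04), the phosphatase gene Ppm1d (0.96) and Plk3 (0.88). Only 9 of the 22 were above 0. Their median was -0.13 by TMM and 0.52 on the ERCC scale, against 0.71 for all genes there. Of 35 cell-cycle genes Cdkn2d (2.0), a CDK inhibitor, and Cdc25a (1.01), a CDK-activating phosphatase, rose and Ccnb2 (-1.61), a mitotic cyclin, fell. None of 13 BCL2 family genes passed the test (4 rose and 1 fell with the block); Bbc3, which encodes the death activator PUMA, had the smallest p (log2 change 1.92 ± 0.65, adjusted p = 0.0572). Of 26 genes of glycolysis and the pentose phosphate pathway the lactate exporter gene Slc16a3 (1.5) rose, and Pgk1 (-0.63) and Aldoa (-0.62) fell. Among 22 genes of P-TEFb and its partners Cdk9, the kinase that DRB inhibits, stood at 41.5, 37.6 and 21.2 CPM under DRB and 108, 59.3 and 60.2 CPM with cycloheximide (log2 change 1.17 ± 0.22, adjusted p = 2.0e-04). Mepce, which caps the small nuclear RNA that holds P-TEFb inactive, also rose (0.87).

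Genes of the decay pathways themselves were mostly moderate in level. Of 20 NMD factors 5 rose and 0 fell (8 and 1 with the block), with a median of 0.37. Pnrc2, which links NMD to decapping, stood at 34.2, 18.4 and 26.3 CPM under DRB and 55.0, 95.8 and 57.4 CPM with cycloheximide (log2 change 1.35 ± 0.26, adjusted p = 2.66e-04). Casc3, a component of the exon junction complex, stood at 38.3, 39.2 and 41.7 CPM and 99.4, 70.1 and 73.4 CPM (adjusted p = 0.0026). Smg8 (1.2) and Smg5 (0.71) rose as well, as did Secisbp2 (0.60), a factor of selenoprotein synthesis that is counted in this list. Smg1, the kinase of the pathway and its most abundant mRNA here, had a log2 change of -0.19 (adjusted p = 0.675). Among 54 genes of deadenylation, decapping and the exosome 4 rose and 1 fell (7.41% and 1.85%, near the 5.2% and 1.28% of all genes; 11 and 7 with the block). Of these, Tob2 (1.17), an adaptor of the CCR4-NOT deadenylase, Dis3l (0.92) and Exosc10 (0.69), nucleases of the exosome, and Pan2 (0.57), a deadenylase, rose, and the decapping enzyme gene Dcp2 (-0.68) fell.

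The next 3 groups are known to hold targets of NMD, and their shares of rises, 6.67, 10 and 8.82%, stand beside 5.2% of all genes. Of 15 host genes of small nucleolar RNAs Nop56 rose (log2 change 0.81 ± 0.20, adjusted p = 0.00708) and Rpl4 fell (-0.59); with the block 4 rose and 6 fell. Of 40 SR and hnRNP splicing regulators, many of which carry poison exons, 4 rose and 1 fell (6 and 5 with the block). Srsf7 stood at 96.2, 78.4 and 68.6 CPM under DRB and 159.6, 172 and 157 CPM with cycloheximide (adjusted p = 5.01e-04), Srsf4 (1.02) and the kinases Clk4 (0.99) and Clk3 (0.89) also rose, and Ptbp3 fell (-0.67; 0.03 on the ERCC scale). Gene counts do not separate isoforms, so poison-exon forms were not analysed here. Of 34 genes of the ATF4 pathway or with upstream open reading frames 3 rose and 1 fell (10 and 4 with the block): Trib3, Sesn2 and the amino acid transporter gene Slc3a2 (0.91) rose, and Ppp1r15a (-1.03), a phosphatase subunit that reverses the stress response, fell.

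Tubulin, histone, selenoprotein and polyamine pathway mRNAs have decay or decoding coupled to translation; over all genes 5.2% were higher and 1.28% lower. None of 12 tubulin genes passed the test, nor did Ttc5, the factor that recognises nascent tubulin; the median of the 13 was -0.30 by TMM and 0.30 on the ERCC scale, and 5 fell with the block. Tubb5, the most abundant, stood at 398, 558 and 538 CPM under DRB and 289, 399 and 402 CPM with cycloheximide. None of 54 replication-dependent histone genes passed it either (5 rose with the block), with a median of 0.54; Hist1h1c, the most abundant, had a log2 change of 0.66 ± 0.39 (adjusted p = 0.353). Reads of both families can be split among near-identical copies. Of 17 selenoprotein mRNAs Selenoo (1.47) and Sephs2 (1.31) rose (11.8%), in both cases with overlapping groups, and Selenot had a log2 change of -0.56 (adjusted p = 0.0603). The list as a whole leaned down, with a median of -0.24 by TMM and 5 of the 17 above 0. With the block 2 rose and 5 fell, and the median on the ERCC scale was 0.45, against 0.71 for all genes. Of 12 genes with amino-acid or polyamine feedback the spermine synthase gene Sms fell (-0.65 by TMM, 0.06 on the ERCC scale).

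Ribosome biogenesis genes encode the factors that process ribosomal RNA and assemble the subunits. Of 48 ribosome biogenesis genes 8 rose and 0 fell (16.7%; 19 and 3 with the block), with a median of 0.15. Utp4, of the small-subunit processome, stood at 30.7, 47.2 and 26.3 CPM under DRB and 97.7, 75.5 and 109 CPM with cycloheximide (log2 change 1.46 ± 0.19, adjusted p = 8.95e-08), and was called whichever replicate number was left out. Polr1e, a subunit of RNA polymerase I, stood at 26.1, 15.2 and 16.7 CPM and 36.2, 33.5 and 44.3 CPM (adjusted p = 0.00227). The others were Rrs1 (1.28), Nop14 (1.27), Nop2 (0.81), Nop56, Noc2l (0.63) and Utp18 (0.53), all nucleolar assembly or modification factors. The abundant nucleolar genes Npm1 and Ncl had log2 changes of -0.44 and -0.21 (adjusted p = 0.16 and 0.859).

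Of 82 cytosolic ribosomal protein genes 0 rose and 9 fell (11%; 75 fell with the block), and their median log2 change of -0.59 by TMM became 0.09 on the ERCC scale. Rps27l and Rpl22l1 had the smallest p; Rpl22l1 stood at 234, 206 and 276 CPM under DRB and 128, 136 and 119 CPM with cycloheximide (adjusted p = 0.0114). Rpsa, one of the most abundant, stood at 5671, 8329 and 5722 CPM and 3539.7, 4844 and 4491 CPM, groups that did not overlap although the adjusted p was 0.181. Many of these genes have processed pseudogenes, to which reads can be lost. Of 51 translation factors Eif2b1 (1.08) and Eif3d (0.71) rose and Eef1b2 (-0.65), Eif3h (-0.55) and Eif1ax (-0.52) fell (7 and 13 with the block). Eef1a1, the most abundant, had a log2 change of -0.60 ± 0.22 (adjusted p = 0.0913). Of 42 proteasome genes Psmd7 (1.29) rose and Psme2 (-0.60 by TMM, 0.15 on the ERCC scale) fell.

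Genes for mitochondrial proteins lie in the nuclear and the mitochondrial genome. Of 74 genes for mitochondrial ribosomal proteins 7 rose and 2 fell (12 and 4 with the block); Mrpl9 stood at 8.37, 14.4 and 7.06 CPM under DRB and 24.4, 31.7 and 29.1 CPM with cycloheximide (log2 change 1.56 ± 0.28, adjusted p = 9.43e-05), and Mrpl49 rose by 1.36. Of 81 nuclear genes for respiratory chain subunits and assembly factors 0 rose and 3 fell (29 fell with the block): Uqcrb, Cox6b1 (-0.75) and Atp5o (-0.58). Their median was -0.39 by TMM and 0.28 on the ERCC scale. The 13 mitochondrially encoded mRNAs, made by a polymerase of their own, gave 0 rises and 4 falls (5 with the block), with a median of -0.83 by TMM, -0.10 on the ERCC scale and 0.07 when scaled on themselves. mt-Co3 stood at 4928, 5234 and 5099.9 CPM under DRB and 2136, 2998 and 2288 CPM with cycloheximide (adjusted p = 0.0103). Mitochondrial reads made up 1.1, 1.11 and 1.35% of exon counts under DRB and 0.820, 0.653 and 0.632% with cycloheximide, with no overlap.

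The numbered Zfp genes, taken by their symbols alone, formed the longest list. Many of them encode zinc finger transcription factors, whose mRNAs are often short-lived. Of 277 tested 29 rose and 1 fell (10.5% rose; 47 and 11 with the block), with a median log2 change of 0.20. Zfp143, a transcription activator that binds at promoters, stood at 12.5, 17.6 and 8.98 CPM under DRB and 31.4, 40.1 and 35.7 CPM with cycloheximide (log2 change 1.47 ± 0.23, adjusted p = 9.22e-06). Zfp263 stood at 58.9, 40 and 39.8 CPM and 92.0, 103 and 96.7 CPM (adjusted p = 3.15e-05). Both were called whichever replicate number was left out. The abundant members Zfp106 and Zfp292 had log2 changes of -0.43 and -0.34 (adjusted p = 0.262 and 0.368).

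Reads in introns, which come mostly from unspliced RNA, gave few calls: 4 of 10750 genes rose and 6 fell (0.0372% and 0.0558%, together 0.093%), and 33 rose and 129 fell with the replicate block (0.307% and 1.2%). Of the 558 genes whose exons rose, 493 had introns tested, none of these was called, and their median intron change was -0.20 against -0.05 for all 8693 genes tested in both. Il4i1, an amino acid oxidase, stood at 23.3, 30.9 and 39.5 CPM of intron reads under DRB and 66.7, 143 and 153 CPM with cycloheximide (log2 change 1.97 ± 0.41, adjusted p = 0.0143); it overlaps Nup62 on the same strand. Zfp64 introns stood at 22.8, 34.5 and 31.6 CPM and 49.3, 88.2 and 122 CPM (1.57). Arfrp1, a small GTPase of the Golgi, had the largest intron fall, from 27.9, 18.2 and 35.6 CPM to 8.22, 1.76 and 4.74 CPM (log2 change -2.33 ± 0.40, adjusted p = 6.10e-04), while its exons had a log2 change of 0.09. Pak1ip1, Ube2a and Dnajc2 introns fell by 2.23, 1.84 and 1.83. Without replicate 4 no intron was called, and without replicate 2 there were 3 calls. The intron share of gene reads was 44.3, 32.9 and 34.3% under DRB and 35.6, 27.9 and 22.8% with cycloheximide, lower in all 3 pairs (exact permutation p = 0.3).

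Harringtonine, added to DRB in place of cycloheximide, was compared with the same 3 DRB libraries, so the values are given side by side and no agreement is drawn from them. Hgh1 had a log2 change of 2.72 ± 0.36 with harringtonine and 2.71 ± 0.36 with cycloheximide. Itpkc had 2.35 ± 0.28 and 2.26 ± 0.28, and Rrp8 2.44 ± 0.25 and 2.10 ± 0.25. Trib3 had 2.32 ± 0.45 and 2.5 ± 0.45. Among the falls Cycs had -0.54 ± 0.21 with harringtonine and -1.06 ± 0.21 with cycloheximide, and Gp5 -0.84 ± 0.48 and -1.90 ± 0.53. All 6 genes passed the test with cycloheximide; with harringtonine the adjusted p were 6.72e-08, 2.58e-09, 2.5e-11, 2.15e-04, 0.111 and 0.355 in the same order. Exon counts per ERCC count were 20.9, 16.4 and 16.7 with harringtonine.

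Other comparisons of cycloheximide share no library with this one. Added to triptolide at 1 h, cycloheximide gave 1013 rises and 240 falls (9.43% and 2.23%). Of the 558 genes that rose under DRB, 413 also rose under triptolide, which is 74.0% of the first list and 40.8% of the second, and none fell. Of the 138 falls, 31 fell under triptolide (22.5% and 12.9% of the lists). Across genes Spearman's rho was 0.58. The difference between the effects under DRB and triptolide gave 0 calls in edgeR, with 478 genes at an unadjusted p under 0.05, 6 calls by DESeq2 and 23 with the replicate block (0.214%; 1 with the higher and 22 with the lower effect under DRB, 0.00931% and 0.205%). Cd69, an early activation receptor, was at 1034, 459 and 1015 CPM under DRB and 617, 649 and 729.8 CPM with cycloheximide added, but at 64.8, 60.1 and 79.5 CPM under triptolide and 147, 258 and 249 CPM with cycloheximide added. Its effects were -0.33 ± 0.31 and 1.67 ± 0.33, and the adjusted p of the difference was 0.0934 and 0.0112 with the block. Cd69 was singled out after its values were seen.

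At 3 h, cycloheximide added to DRB gave 1126 rises and 767 falls (10.5% and 7.14%). Of the 558 genes that rose at 1 h, 322 rose at 3 h (57.7% of the 1 h list and 28.6% of the 3 h list), and of the 138 that fell 86 fell at 3 h (62.3% and 11.2%); none was called in the opposite direction. Across genes rho was 0.56. The effect differed between the times for 57 genes (0.531%; 428 or 3.98% with the block), 8 with a more positive effect at 1 h (0.0745%) and 49 with a more positive effect at 3 h (0.456%). Cyb561d2, a reductase of the cytochrome b561 family, had an effect of 0.47 ± 0.36 at 1 h and 3.54 ± 0.66 at 3 h (adjusted p of the difference = 0.0404). Nmi, an interferon-induced protein, had -0.01 ± 0.19 and 2.11 ± 0.23 (2.43e-06), and its call held whichever replicate number was left out. Gtf2h2, a TFIIH subunit, had 0.16 ± 0.29 and 2.62 ± 0.39 (0.00407), and Polr2k, a small subunit shared by RNA polymerases, -0.57 ± 0.36 and 1.73 ± 0.47 (0.0466). The genes with the more positive effect at 1 h were led by Gpam (0.30 at 1 h and -1.57 at 3 h), Ppp1r10 (0.88 and -0.66), Zfp143 (1.47 and 0.14) and Sipa1l2 (0.21 and -0.91). Apart from Nmi, each of these 8 lost its call without replicate 2.

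Without a transcription inhibitor, cycloheximide gave 184 rises and 99 falls at 1 h (1.71% and 0.922%). Of the 558 genes that rose under DRB, 51 rose with cycloheximide alone (9.14% of the first list and 27.7% of the second) and 1 fell; across genes rho was 0.36. The effects differed for 75 genes (0.698%; 506 or 4.71% with the block), 59 with the more positive effect under DRB (0.549%) and 16 with the more positive effect without it (0.149%). Of these 16 genes 5 are in the list of 38 immediate early genes. Fos, a subunit of the AP-1 factor, stood at 72.9, 129.5 and 99.1 CPM in untreated cells and 376, 485 and 555 CPM with cycloheximide, but at 63.4, 71.2 and 89.8 CPM under DRB and 65.4, 84.5 and 83.6 CPM with both. Every library with cycloheximide alone was above all the others. Zfp36, which binds the nonamer shown above, stood at 72.4, 84.3 and 91.2 CPM and 389, 378 and 507 CPM without DRB and at 47.4, 55.2 and 56.5 CPM and 51.5, 52.1 and 45.5 CPM with it. The differences in effect were -2.18 ± 0.48 for Fos and -2.45 ± 0.42 for Zfp36 (adjusted p = 0.00851 and 2.03e-04), and -2.19 ± 0.47 for Ier2 and -2.66 ± 0.42 for Rgs1 (0.00737 and 8.95e-05).

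The genes named in the other direction rose under DRB and had a small or a negative effect alone. Hgh1 stood at 46.0, 40.8 and 50.3 CPM in untreated cells and 45.7, 51.0 and 82.4 CPM with cycloheximide alone, a log2 change of 0.38 ± 0.25 against 2.71 ± 0.36 under DRB (adjusted p of the difference = 0.00114). Trib3 had an effect of 0.00 ± 0.34 alone and 2.5 ± 0.45 under DRB (0.0113), Kpna2, a nuclear import receptor, -0.96 ± 0.32 and 1.52 ± 0.44 (0.00851), and Fbxl15, an F-box protein that overlaps Cuedc2 on the other strand, -0.40 ± 0.35 and 2.57 ± 0.55 (0.00875). With 1 replicate number left out none of these 8 differences was called in all 3 fits; Rgs1 and Zfp36 were called in 2 of the 3. On the ERCC scale 14 differences were called (0.13%), among them those of Hgh1, Rgs1, Fbxl15 and Kpna2.

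**Figure D5:**
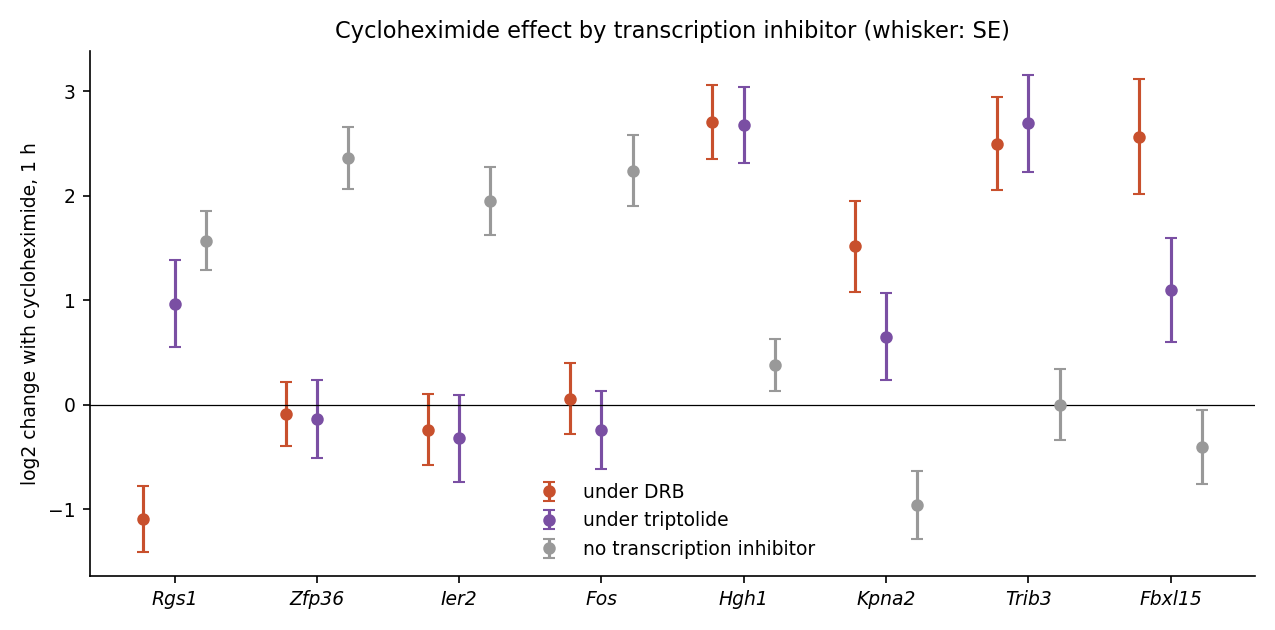
Log2 change with cycloheximide at 1 h (whiskers: SE) for the 8 genes whose effect differed most with and without DRB, shown for cells under DRB, under triptolide and without a transcription inhibitor. Fos, Zfp36 and Ier2 lie near 0 under DRB and above 1 without it, and Hgh1 and Trib3 lie above 2 under DRB.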

How the data were processed

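The deposited table gives counts for 22322 mouse genes, 92 ERCC spike-in RNAs and 5 summary rows that name no gene, with exon, coding-sequence and intron counts for each library. The submitters' processing notes name the build mm10 and the tools TopHat2 2.0.13, Bowtie 1.1.1.0 and HTSeq; strand use, duplicate handling and any filter are not given in the sources used here. Equal numbers of cells went into each extraction of total RNA, per the labels' protocols. The summary rows, 79.5 to 94.3% of the reads of the 6 libraries, stayed out of library sizes and tests. No pair of libraries within a group used here differed by as little as sampling noise (lowest chi-square per degree of freedom 4.81). Exon counts of the 6 libraries ran from 1349308 to 3268971, which leaves genes of a few CPM with few reads.

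Genes were tested with edgeR 4.0.16 in R 4.3.3 (filterByExpr, TMM factors, robust quasi-likelihood fit). All libraries of the series were fitted as 35 group means, which share one estimate of the spread, and p-values were adjusted by the Benjamini-Hochberg method over all genes tested, with a threshold of 0.05. That fit kept a library of resting cells under triptolide at 1 h that held only 6300 exon counts. CPM are TMM-scaled. Intron counts were fitted the same way with their own library sizes. Ratios to ERCC counts were tested by exact permutation. Tested on simulated data for the main comparison (10652 genes), the fit recovered 64 of 100 genes changed 2-fold and 95 of 100 changed 4-fold, with 9 false calls. The changes were given only to genes above a minimum mean count in the DRB libraries. The simulated libraries had no pairing by replicate number, so these figures do not cover scarce genes or paired replicates. Deviations from the group mean correlated over genes at r = 0.63, 0.66 and 0.43 between libraries of the same replicate number. Between others r was -0.61 to 0.18. The numbers were therefore taken to pair the groups, which the labels do not state. Alternatives were RLE factors, library size, ERCC or mitochondrial scaling, other filters, DESeq2 1.42.0, the libraries compared alone, a replicate block, coding-sequence counts and leaving out each replicate number; the combined settings and the grouping by triptolide change were added after seeing the data.

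Members, gene lists and rules were chosen with earlier results of these data known. Named genes are the 12 largest called rises and falls whose groups do not overlap and reach 10 CPM in either group, the 2 most abundant members of each list and its 2 of smallest p, and the 4 largest in each direction of each difference of effects and of introns; predicted, pseudogene and mitochondrially encoded symbols were left out of the first set. Other members are named where a list had few calls, chosen after their values were seen. Gene positions and UTRs come from GENCODE M21 (GRCm38, the assembly also called mm10). 1 gene that the rule names is not reported here. Of the 151 named genes 36 overlap another protein-coding gene, whose reads may be shared.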

Additional observations from a re-analysis of the deposited data

Results flagged for a closer look

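For 57 genes the effect of cycloheximide under DRB differed between 1 h and 3 h by the test of the difference itself. Among the genes named here the log2 difference (1 h minus 3 h) was -3.07 for Cyb561d2, -2.45 for Gtf2h2, -2.30 for Polr2k, -2.12 for Nmi, -1.80 for Nop56, -1.70 for Dnajc2, -1.38 for Pak1ip1, -1.16 for Exosc10, -1.05 for Eif3d and -1.05 for Ldha. It was 1.87 for Gpam, 1.54 for Ppp1r10, 1.33 for Zfp143 and 1.12 for Sipa1l2. Nop56 and Exosc10, which rose at 1 h, therefore had the larger effect at 3 h.

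For 75 genes the effect at 1 h differed between cells under DRB and cells without a transcription inhibitor. The log2 difference (under DRB minus without) was 2.97 for Fbxl15, 2.496 for Trib3, 2.47 for Kpna2, 2.33 for Hgh1, 2.21 for Cmtr2, 2.11 for Sesn2, 2.07 for Trim32, 1.88 for Rrp8, 1.72 for Gtf3c5, 1.72 for Pdcd1, 1.63 for Utp4, 1.47 for Itpkc, 1.35 for Zfp143 and 1.12 for Polr1e. The difference was negative for Rgs1 (-2.66), Zfp36 (-2.45), Ier2 (-2.19), Fos (-2.18) and Lcmt2 (-2.01). Groups of 3 libraries are too small for a test of single outlying values.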

How the results depend on the processing

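The 696 calls became 410 with coding-sequence counts, 1078 with library size alone, 3593 with ERCC scaling, 5612 with mitochondrial scaling and 2128 with the replicate block; with the 6 libraries alone they were 0, or 138 with DESeq2 and 2025 with the block. Added ERCC settings gave 5519 with the block and 502 to 3738 with 1 replicate number left out (1540 without replicate 4); with TMM that range was 131 to 209 without replicate 4 or 2 and 502 without replicate 3. Other filters, RLE factors and DESeq2 on all libraries gave 539 to 842. The 10 intron calls became 21 with DESeq2, 4 with RLE factors, 4 with library size, 5 with no filter, 26 at 10 CPM or more, 2 with ERCC scaling, 162 with the block, 0 with the libraries compared alone (461 with the block), and 0 to 12 with 1 replicate number left out. The 57 differences between 1 h and 3 h became 162 with library size, 3 with the libraries compared alone, 428 with the block, 7 with mitochondrial and 5 with ERCC scaling, and 5 to 18 with 1 number left out. The 0 differences from triptolide became 6 with DESeq2, 1 with RLE factors, 1 with library size, 15 with no filter, 1 at 10 CPM or more, 23 with the block and 0 to 2 with 1 number left out. The 75 differences from cells without a transcription inhibitor became 31 with coding-sequence counts, 8 with the libraries compared alone, 506 with the block, 1 with mitochondrial and 14 with ERCC scaling, and 2 to 45 with 1 number left out. The log2 difference of exon counts per ERCC count, 0.54, ran from 0.35 to 0.68 with 1 number left out, where the smallest possible exact permutation p is 0.333.

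Of the named genes, 73 were called; all 73 were called with the block, 28 without replicate 2, 49 without replicate 3 and 33 without replicate 4. Signs were compared where the named gene was called in the main or the other setting; they then turned only under mitochondrial or ERCC scaling, which move the median of all genes, and uncalled genes with small negative values can turn there too. With mitochondrial scaling the log2 change was 0.00021 for Sh3bgrl, 0.023 for Tma7, 0.013 for Neto2, 0.78 for Nfkb1, 0.71 for Smg1, 0.32 for Rpl4, 0.26 for Ptbp3, 0.72 for Hnrnpf, 0.27 for Sms, 0.84 for Btg1, 0.29 for Psme2, 0.81 for Psme3, 0.26 for Pgk1, 0.023 for Rpl22l1, 0.068 for mt-Co1, 0.69 for Mrpl24, 0.88 for Mrps9, 0.32 for Atp5o, 0.58 for Zfp292, 0.79 for Cd4 and 0.90 for Nmi. With ERCC scaling it was 0.13 for Rpl4, 0.034 for Ptbp3, 0.061 for Sms, 0.15 for Psme2, 0.086 for Pgk1, 0.12 for Atp5o and 0.67 for Nmi. Causes of these shifts were not tested. Depth limits genes of a few CPM, where 1 read in the shallowest library is a large step.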
